A study of Mus musculus with 16 samples.

Results

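Interferon-stimulated genes, a group of 42 named genes that either carry out or transmit the response to interferon, were followed in the left ventricle of male mice that were castrated (CX) or sham-operated before puberty. Of these 42 genes, 22 were taken as induced mainly by type I interferon, 11 as induced mainly by interferon gamma and 4 as induced by both, and 5 encode chains of the interferon receptors. This assignment rests on general knowledge, and many type I members also respond to gamma. A platform probe-to-gene table gave 65 probes for 39 of the members, of 25697 probes and 16593 named genes on the array, whereas Ifi44, Gbp6 and Dtx3l had no probe in that table. A probe was tested where any group held 2 or more of its 4 arrays with a detection p of at most 0.04, which left 48 probes of 31 members among 12764 probes tested in all.

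The 16 hearts formed 4 groups of 4 mice each, namely CX C57.YA, sham C57.YA, CX C57BL/6J and sham C57BL/6J. C57.YA mice have the C57BL/6J background but carry the Y chromosome of the A/J strain, so by construction the strains differ in the origin of chromosome Y. All mice were male and 12 weeks old. A separate Illumina MouseRef-8 v2.0 array was run for every heart, and values below are log2 signals after quantile normalization. The comparisons asked how castration changed the members in each strain, and how the strains differed within each surgery group.

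Interferons are secreted proteins that warn cells of infection. Type I interferons bind the Ifnar1 and Ifnar2 chains, interferon gamma binds Ifngr1 and Ifngr2, and interferon lambda binds Ifnlr1 together with Il10rb. Inside the cell, Janus kinases attached to these chains activate transcription factors. A complex that contains Stat2 and Irf9 binds interferon-stimulated response elements (ISRE) after a type I signal, while a gamma signal acts through gamma-activated sequences (GAS). The genes so induced block viral RNA, tag proteins with Isg15, attack the vacuoles of intracellular microbes, or, as with Usp18, dampen the signal. A low level of this program is present in healthy tissues, the heart included.

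The arrays detected 11435 to 12212 of the 25697 probes each. Of the 65 member probes, 41 were detected on all 16 arrays, 15 were never detected, and Ifit1, Ifih1, Dhx58, Xaf1, Iigp1, Tgtp1, Parp9 and Ifnar1 had no probe that could be tested. Just inside the limit, Irf7 (ILMN_1227573) and the Usp18 probe ILMN_3054914 were each detected on 2 of 4 CX C57.YA arrays, with means of 6.97 and 6.93 there. Just outside it, Dhx58 was detected on 1 of 4 arrays in each C57.YA group, with means of 6.76 in CX and 6.76 in sham hearts. Irf7, Rtp4 and this Usp18 probe passed the limit through CX C57.YA hearts only, and Isg20 through the sham groups only. The 4 sham C57.YA arrays fell into pairs, as deviations from the group mean correlated at 0.25 between replicates 1 and 2 and at 0.17 between replicates 3 and 4, against -0.63 to -0.54 across the pairs. Within the other groups these correlations were all negative, between -0.49 and -0.20. Cardiomyocyte markers listed for the ventricle averaged between 13.98 and 14.22 over the arrays, so heart muscle genes were high in every heart. That mean alone does not set ventricle apart from atrium. In contrast, 4 genes of atrial muscle (Myl4, Myl7, Sln and Mybphl) averaged 9.23 to 11.16 in CX C57BL/6J hearts, against 6.99 to 7.65 on the 12 other arrays.

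The letters of both elements were looked for in RefSeq promoters (GRCm38.p6), taken from 250 bases before to 50 after each start. The ISRE was searched as GAAA, any 2 bases and GAAA, and the GAS as TTCNNNGAA, on both strands, and a base could belong to a match of each. Of 32851 promoters of this length, 3.44% held the ISRE letters and 8.30% the GAS letters. A promoter entry was matched for 32 of the 42 members, with 39 promoters in all. Of these 39 promoters, 13 held the ISRE letters and 10 the GAS letters, in 13 and 10 of the 32 members. Among members with an entry, these were 8 and 4 of 17 type I members, 5 and 4 of 9 gamma-induced members, and 0 and 2 of the 5 receptor chains. A match is a description of letters and not a binding site. The windows below are those of every member that was called in a comparison that follows and held matched letters before its start, 5′ to 3′ on the strand of the gene, with matched letters in capitals. They show side by side the type I members, of which Ifit2 and Isg20 held GAS letters only, and the gamma-induced members. Of the latter, the GTPases shown (Gbp2, Gbp3, Igtp and Irgm1) held ISRE letters, and of these only Igtp held GAS letters as well. Ifi47, another GTPase called below, had a promoter entry with neither.
Ifit2, chr19:34550444-34550476, plus strand, GAS letters: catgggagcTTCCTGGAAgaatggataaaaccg
Ifit3, chr19:34583358-34583431, plus strand, ISRE letters 2 times: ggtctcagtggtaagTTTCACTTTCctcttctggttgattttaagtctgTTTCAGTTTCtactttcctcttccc
Isg15, chr4:156200860-156200911, minus strand, ISRE letters 3 times and overlapping: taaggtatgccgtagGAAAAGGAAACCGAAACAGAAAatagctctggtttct
Isg20, chr7:78913336-78913374, plus strand, GAS letters: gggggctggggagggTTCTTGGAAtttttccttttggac
Rsad2, chr12:26456548-26456587, minus strand, ISRE letters: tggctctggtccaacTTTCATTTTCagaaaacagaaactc
Bst2, chr8:71537572-71537623, minus strand, GAS letters overlapping the first of 2 ISRE matches: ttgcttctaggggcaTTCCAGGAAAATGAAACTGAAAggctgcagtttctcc
Gbp2, chr3:142620589-142620628, plus strand, ISRE letters: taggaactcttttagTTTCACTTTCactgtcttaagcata
Gbp3, chr3:142559984-142560029, plus strand, ISRE letters 2 times and overlapping: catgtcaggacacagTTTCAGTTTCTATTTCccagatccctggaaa
Igtp, chr11:58199496-58199546, plus strand, GAS letters and then ISRE letters: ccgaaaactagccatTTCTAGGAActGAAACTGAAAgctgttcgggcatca
Irgm1, chr11:48871421-48871465, minus strand, ISRE letters 2 times and overlapping: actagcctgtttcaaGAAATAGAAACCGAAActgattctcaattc
Irf1, chr11:53769909-53769947, plus strand, GAS letters: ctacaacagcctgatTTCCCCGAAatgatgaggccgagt

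Castration raised many of the members in C57.YA hearts. Of 48 member probes, 24 rose, in 15 of 31 genes, and 1 fell (limma, adjusted p under 0.1), whereas 9.55% of all 12764 tested probes rose and 10.1% fell. Of these calls, Rtp4 and the Usp18 probe ILMN_3054914 passed the detection limit only through CX C57.YA hearts, where they were high, and Isg20 only through sham hearts, so a difference was built into the choice of those 3 probes. Over the 43 member probes that met the limit in both C57.YA groups, 22 rose, in 14 of 28 genes, and none fell, against 9.63% raised and 10.3% lowered of all such probes. In bulk tissue, fewer cells that express a gene and less RNA per cell cannot be told apart. The groups did not overlap for 19 member probes that were higher in CX hearts, against 9.43% of all probes, and for none that was lower, against 10.1%. Raised type I members detected in both groups were Ifit2, Ifit3, Isg15, Irf9, Oasl2, Usp18 and Bst2, and raised gamma-induced members were Irf1, Gbp2, Gbp3, Ifi47, Igtp and Irgm1. The receptor chain Ifngr2 rose as well. Because members were chosen with earlier results of these data known, their counts beside all probes, here and below, are a description.

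**Figure D1:**
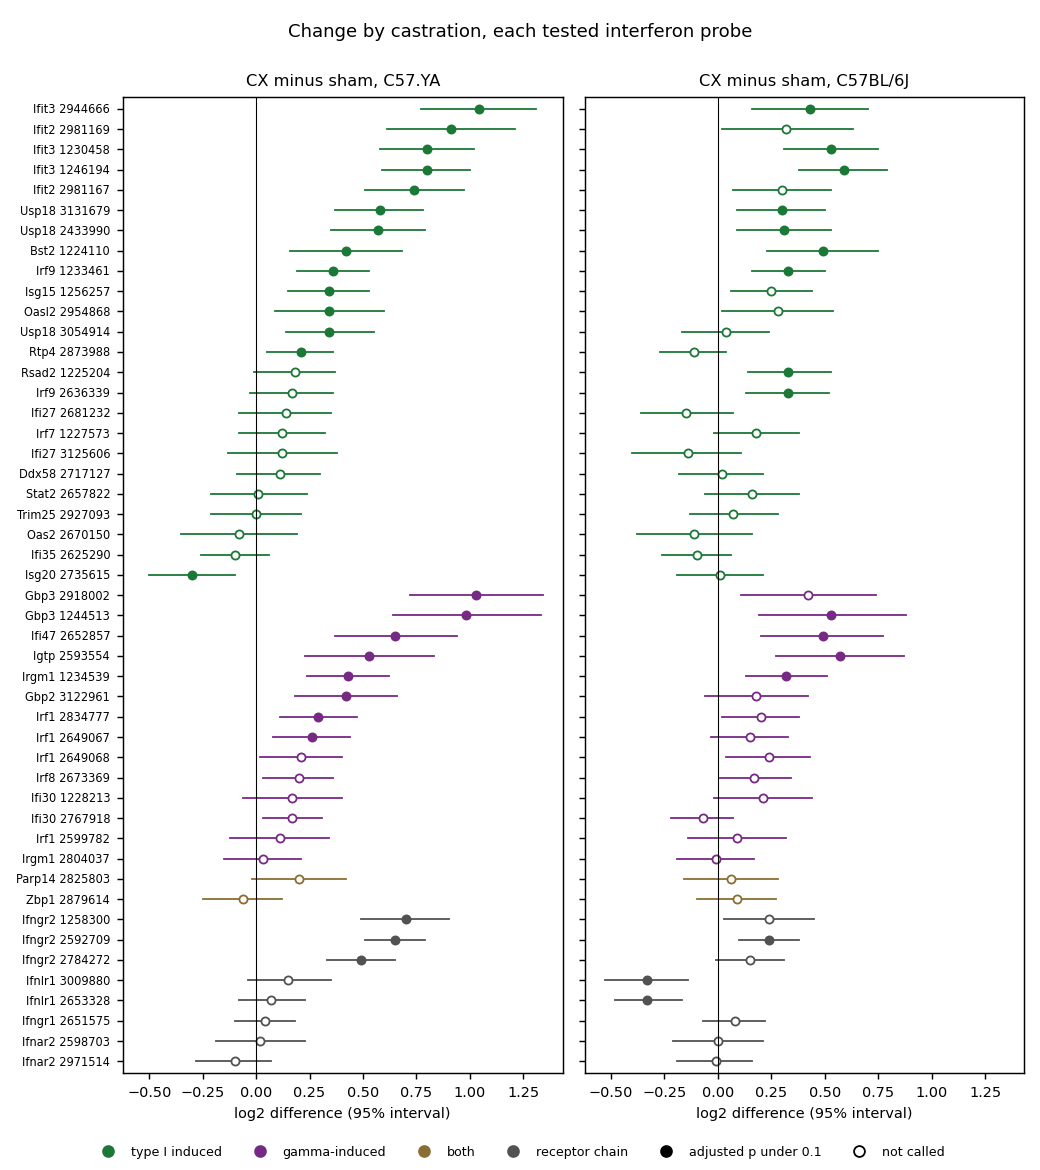
Difference by castration (CX minus sham, log2, with its 95% interval) of each of the 48 tested member probes, in C57.YA hearts on the left and in C57BL/6J hearts on the right, ordered by class and by the C57.YA difference and named by gene and probe number. Filled points have an adjusted p under 0.1: 24 raised and 1 lowered in C57.YA, 14 raised and 2 lowered in C57BL/6J.

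The Ifit genes, whose products bind viral RNA and hold back its translation, changed most among the type I members. In CX C57.YA hearts the Ifit3 probe ILMN_2944666 read 10.09, 10.16, 10.21 and 10.12, against 9.09, 8.57, 9.51 and 9.24 in sham C57.YA hearts. All 4 CX arrays lay above the highest sham array, and sham replicate 2 was the lowest of all. The difference was 1.04 (standard error 0.13, 2.06-fold, adjusted p = 2.37e-05). A second Ifit3 probe, ILMN_1230458, read 8.15, 8.24, 8.14 and 8.07 in CX against 7.35, 7.21, 7.68 and 7.16 in sham C57.YA hearts, and differed by 0.80 (standard error 0.11, adjusted p = 4.25e-05). The third, ILMN_1246194, read 8.14, 8.22, 8.30 and 8.25 in CX against 7.70, 7.34, 7.20 and 7.49 in sham hearts and also differed by 0.80 (standard error 0.10, adjusted p = 2.10e-05). The 3 Ifit3 probes thus agreed in direction and kept the groups apart on every array.

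Its neighbour Ifit2 behaved alike. Probe ILMN_2981169 read 9.30, 9.29, 9.17 and 8.90 in CX C57.YA hearts, against 8.23, 8.05, 8.51 and 8.23 in sham C57.YA hearts, a difference of 0.91 (standard error 0.14, adjusted p = 2.97e-04). Probe ILMN_2981167 read 9.13, 9.13, 9.0 and 8.82 in CX and 8.39, 8.02, 8.55 and 8.16 in sham hearts, and differed by 0.74 (standard error 0.11, adjusted p = 1.43e-04). Neither probe showed overlap between the groups. Usp18, which removes Isg15 from proteins and restrains the type I receptor, rose on both of its probes that were detected in the 2 groups. On ILMN_3131679 it read 8.98, 9.06, 9.30 and 9.15 in CX against 8.50, 8.32, 8.69 and 8.65 in sham C57.YA hearts, and differed by 0.58 (adjusted p = 5.37e-04). On ILMN_2433990 it read 8.27, 8.20, 8.31 and 8.08 in CX against 7.79, 7.40, 7.95 and 7.45 in sham hearts, and differed by 0.57 (adjusted p = 0.00131). The groups were apart on both, whereas ILMN_3054914 was not detected on any sham C57.YA array, so it is set aside. Irf9, the DNA-binding partner of Stat2, rose by 0.36 on ILMN_1233461 (adjusted p = 0.00539), whereas its other probe, ILMN_2636339, differed by 0.17 (adjusted p = 0.251).

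Smaller increases were seen in further type I members. Bst2 (tetherin, which retains budding viruses) rose by 0.42, Isg15 (the ubiquitin-like tag itself) by 0.34 and Oasl2 (a relative of the 2′-5′ oligoadenylate synthetases) by 0.34. Rtp4 read 7.05, 6.85, 7.03 and 7.05 in CX C57.YA hearts, where it was detected on 3 of 4 arrays, against 6.90, 6.80, 6.68 and 6.77 in sham C57.YA hearts, where it was detected on none. For such probes only a bound holds, taken against the lowest signal that counted as detected, and Rtp4 was at least 1.02-fold higher. CX replicate 2 lay below the highest sham array. As Rtp4 was tested only because CX C57.YA hearts reached the limit, its call (adjusted p = 0.0690) is given as a description. The 1 lowered call was that of Isg20, an exonuclease that degrades RNA, and is likewise a description. Isg20 read 6.80, 6.67, 6.58 and 6.64 in CX C57.YA hearts, not detected on any, against 7.22, 7.05, 6.71 and 6.91 in sham C57.YA hearts, detected on 2. Sham replicate 3 lay among the CX values. The bound was 1.02-fold lower at least (adjusted p = 0.0446), and no member probe was called lowered without CX C57.YA replicate 3, sham C57.YA replicate 1 or sham C57.YA replicate 2. Type I members that did not pass were Irf7 (0.12), Stat2 (0.01), Oas2 (-0.08), Rsad2 (0.18), Ifi27 (0.14 and 0.12), Ifi35 (-0.10), Ddx58 (0.11) and Trim25 (0.00), all with overlapping groups.

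The gamma-induced GTPases rose as well. Guanylate-binding proteins such as Gbp3 assemble on membranes around intracellular microbes. Gbp3 probe ILMN_2918002 read 9.72, 10.25, 9.73 and 9.44 in CX C57.YA hearts, against 8.80, 8.32, 9.17 and 8.72 in sham C57.YA hearts. The difference was 1.03 (standard error 0.15, 2.04-fold, adjusted p = 1.21e-04). The other Gbp3 probe, ILMN_1244513, read 10.09, 10.49, 10.11 and 9.78 in CX against 9.14, 8.85, 9.67 and 8.88 in sham hearts, and differed by 0.98 (standard error 0.16, adjusted p = 5.15e-04). On both probes sham replicate 3 was the highest sham array but stayed below every CX array. Ifi47, an immunity-related GTPase, read 8.59, 9.06, 8.73 and 8.33 in CX and 8.13, 7.87, 8.19 and 7.91 in sham C57.YA hearts, a difference of 0.65 (standard error 0.14, adjusted p = 0.00319). Igtp and Irgm1 belong to the same GTPase family and rose by 0.53 (adjusted p = 0.0195) and 0.43 (ILMN_1234539, adjusted p = 0.00384). Irgm1 had a second tested probe, ILMN_2804037, at 13.32 to 13.47 in CX and 13.25 to 13.45 in sham C57.YA hearts, which differed by 0.03 only, so its probes disagreed.

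Gbp2 rose by 0.42 (adjusted p = 0.0191), with CX C57.YA replicate 2 at 10.98 and the other CX arrays between 10.43 and 10.54, against at most 10.43 in sham hearts. Irf1, the transcription factor that carries much of the gamma response, rose on 2 of 4 tested probes. On ILMN_2834777 it read 11.45, 11.43, 11.66 and 11.36 in CX against 11.25, 11.26, 11.22 and 11.01 in sham C57.YA hearts, and differed by 0.29 (adjusted p = 0.0303). On ILMN_2649067 it differed by 0.26 (adjusted p = 0.0482), and on ILMN_2649068 and ILMN_2599782 by 0.21 (adjusted p = 0.142) and 0.11 (adjusted p = 0.543). Irf8, a transcription factor of myeloid cells, and Ifi30, a lysosomal thiol reductase, did not pass, at 0.20 (adjusted p = 0.106) for Irf8 and 0.17 on both Ifi30 probes. Parp14 and Zbp1, taken as induced by both interferons, differed by 0.20 and -0.06 and did not pass. No gamma-induced probe fell, and the 14 differences ranged between 0.03 and 1.03.

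**Figure D2:**
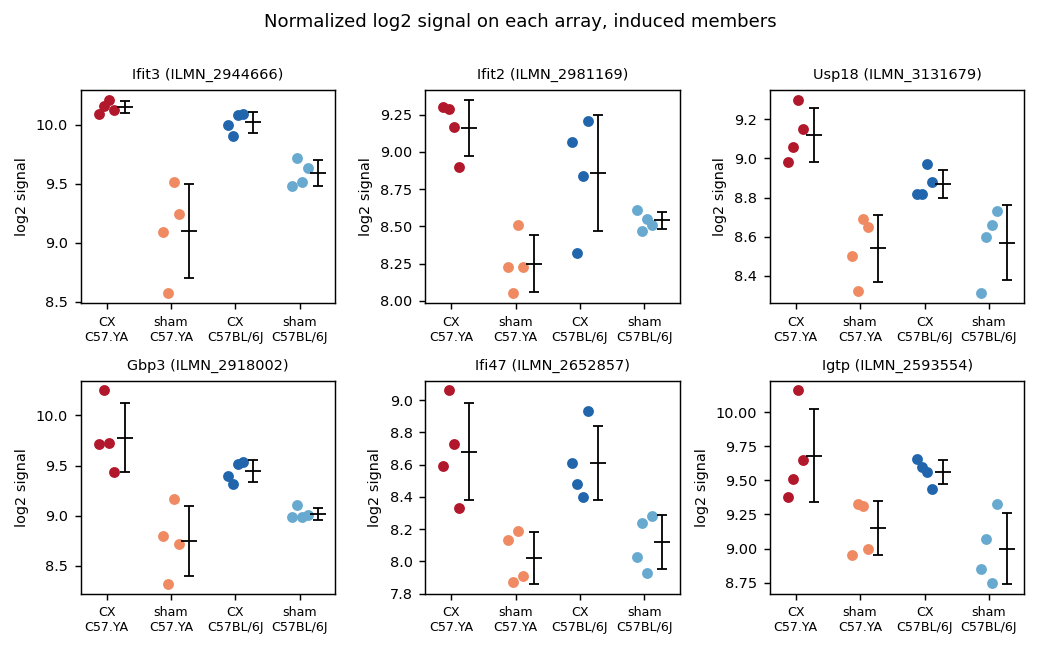
Normalized log2 signal of 6 induced members on each array, in CX and sham C57.YA hearts and CX and sham C57BL/6J hearts. Points are single mice, and the bar beside them gives the mean ± SD (n = 4). All CX C57.YA points lie above all sham C57.YA points, for example at 10.09 to 10.21 against 8.57 to 9.51 for Ifit3, and sham C57.YA points spread the most for Ifit3.

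Without the paired sham C57.YA replicates 1 and 2 the number of raised member probes in C57.YA was 21, and without replicates 3 and 4 it was 22. None of the 10 probes with the largest C57.YA differences lost its call when single arrays were left out. Markers of other cells were set beside this result. None of 11 macrophage probes was called in this comparison, and the list averaged 9.86 to 10.28 in CX and 9.80 to 9.97 in sham C57.YA hearts. None of the 6 T cell genes on the array (Cd3e, Cd3d, Cd3g, Cd4, Cd8a and Cd2) was detected on any array, nor were the plasmacytoid dendritic cell genes Siglech, Ccr9 and Cd209d. The fourth gene of that list, Tcf4, which many cell types express, rose by 0.23 (adjusted p = 0.0921). Of 7 fibroblast probes 1 rose (Lum), and that list averaged 10.36 to 10.54 in CX and 10.04 to 10.36 in sham C57.YA hearts. The part of fibroblasts in the result was not tested.

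In C57BL/6J hearts castration raised 14 of the 48 member probes, in 10 genes, and lowered 2 probes of 1 gene, against 4.10% raised and 4.71% lowered among all tested probes. The groups did not overlap for 16 member probes that were higher and 2 that were lower in CX hearts, against 5.84% and 6.33% of all probes. Of the 15 genes called raised in C57.YA, 9 were also called raised in C57BL/6J (60.0% of the C57.YA genes and 90.0% of the C57BL/6J genes), namely Ifit3, Irf9, Usp18, Bst2, Gbp3, Ifi47, Igtp, Irgm1 and Ifngr2. The tenth was Rsad2. As the overlap between the strains was not counted over all tested probes, it is not read as particular to the members.

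Ifit3 again stood among the largest differences. Probe ILMN_1246194 read 8.35, 8.49, 8.41 and 8.51 in CX C57BL/6J hearts, against 7.87, 7.80, 8.09 and 7.66 in sham C57BL/6J hearts, a difference of 0.59 (standard error 0.10, 1.5-fold, adjusted p = 0.00120). Probe ILMN_1230458 read 8.48, 8.51, 8.19 and 8.28 in CX and 7.82, 8.05, 7.78 and 7.69 in sham hearts, and differed by 0.53 (adjusted p = 0.00465). On ILMN_2944666 the values were 10, 9.90, 10.08 and 10.09 in CX against 9.48, 9.72, 9.51 and 9.63 in sham hearts, and the difference of 0.43 (adjusted p = 0.0608) lost its call when any of 6 C57BL/6J arrays was left out (CX replicates 1, 3 and 4 and sham replicates 1, 3 and 4), with adjusted p between 0.101 and 0.141. No Ifit3 probe overlapped between the groups. Ifit2 differed by 0.30 and 0.32 and did not pass (adjusted p = 0.122 and 0.212).

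Of the GTPases, Igtp read 9.66, 9.60, 9.56 and 9.44 in CX C57BL/6J hearts, against 8.85, 9.07, 8.75 and 9.33 in sham C57BL/6J hearts, a difference of 0.57 (standard error 0.14, adjusted p = 0.0269). For Ifi47 the values were 8.61, 8.48, 8.40 and 8.93 in CX and 8.03, 8.24, 7.93 and 8.28 in sham hearts, and it differed by 0.49 (adjusted p = 0.0433). The call of Ifi47 was lost without CX replicate 4, sham replicate 1 or sham replicate 3 (adjusted p = 0.101 to 0.131). Gbp3 on ILMN_1244513 read 9.91, 9.64, 10.06 and 10.01 in CX and 9.22, 9.57, 9.17 and 9.53 in sham hearts, a difference of 0.53 (adjusted p = 0.0680). That call was lost without CX replicate 1, 3 or 4 or sham replicate 1 or 3 (adjusted p = 0.116 to 0.176), and the other Gbp3 probe differed by 0.42 (adjusted p = 0.111). Irgm1 rose by 0.32 on ILMN_1234539 (adjusted p = 0.0456) and differed by -0.01 on ILMN_2804037. The groups did not overlap for Igtp, Ifi47, either Gbp3 probe or the first Irgm1 probe.

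Type I members with smaller differences followed. Bst2 read 9.53, 9.11, 9.56 and 9.63 in CX C57BL/6J hearts, against 8.70, 9.17, 9.08 and 8.94 in sham C57BL/6J hearts, and rose by 0.49 (adjusted p = 0.0265), although CX replicate 2 lay among the sham values. Rsad2 (viperin, which halts viral replication) read 10.84, 10.88, 11.05 and 11.30 in CX and 10.69, 10.67, 10.70 and 10.67 in sham hearts, and rose by 0.33 (adjusted p = 0.0393), a call lost without CX replicate 4 (adjusted p = 0.105). Both Irf9 probes rose here. ILMN_1233461 read 9.25, 9.13, 9.21 and 9.22 in CX against 8.78, 8.84, 8.87 and 8.99 in sham hearts and differed by 0.33 (adjusted p = 0.0217). ILMN_2636339 read 7.75, 7.77, 7.49 and 7.63 in CX against 7.27, 7.24, 7.37 and 7.44 in sham hearts and differed by 0.33 (adjusted p = 0.0468), which was lost without CX replicate 1 or 2 or sham replicate 1 or 2 (adjusted p = 0.108 to 0.124). Usp18 rose by 0.31 (ILMN_2433990) and 0.30 (ILMN_3131679), with no overlap, while Isg15 (0.25, adjusted p = 0.116) and Oasl2 (0.28, adjusted p = 0.204) did not pass.

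This count rested on single arrays more than that in C57.YA did. It was 7 without sham C57BL/6J replicate 1, 8 without sham replicate 3, and 9 without CX replicate 1 or CX replicate 4. The 4 atrial genes all rose in the same comparison. With their mean as a covariate 2 member probes were called raised and none lowered, but as these genes were high in CX C57BL/6J hearts only, group and covariate cannot be told apart in that fit. Of 11 macrophage probes 1 rose (Cx3cr1) and 3 fell (Mrc1, Lyz2 and F13a1), and the list averaged 9.43 to 9.92 in CX against 9.83 to 9.97 in sham C57BL/6J hearts. The neutrophil genes S100a8 and S100a9 fell as well. Of 7 fibroblast probes 1 rose, and that list averaged 10.15 to 10.69 in CX against 10.20 to 10.39 in sham C57BL/6J hearts. Lum read 11.46, 11.41, 11.60 and 11.68 in CX against 10.81, 10.85, 10.84 and 10.59 in sham C57BL/6J hearts. The part of these cells in the result was not tested.

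Type I and gamma-induced members were next set side by side with 1 probe per gene, that of highest mean signal. In C57.YA the median difference by castration was 0.18 over 17 type I genes and 0.36 over 8 gamma-induced genes, and in C57BL/6J it was 0.18 and 0.21, beside medians of all tested probes of 0.00 in both strains. Of the type I genes 14 of 17 had a positive difference in C57.YA and 13 of 17 in C57BL/6J, and of the gamma-induced genes 8 of 8 and 7 of 8. On these probes 8 of 17 type I genes (Rtp4 among them) and 5 of 8 gamma-induced genes were called raised in C57.YA, and 5 of 17 and 3 of 8 in C57BL/6J. Irgm1, whose probe of highest signal was not called, is the gamma-induced gene that a call on any probe would add in each strain. Over all 24 type I and 14 gamma-induced probes, in place of 1 per gene, the medians were 0.27 and 0.28 in C57.YA and 0.26 and 0.21 in C57BL/6J, so the gap between the classes in C57.YA changed with the choice of probe. With detection asked on all 4 arrays at a limit of 0.01 the type I medians were 0.34 in C57.YA and 0.30 in C57BL/6J, and over the 14 type I genes that met the original limit in both groups they were 0.26 and 0.26.

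On single arrays, the mean of the 17 type I genes was 8.59, 8.65, 8.67 and 8.56 in CX C57.YA hearts, against 8.44, 8.29, 8.40 and 8.33 in sham C57.YA hearts. In C57BL/6J it was 8.56, 8.47, 8.54 and 8.69 in CX hearts, against 8.33, 8.46, 8.40 and 8.44 in sham hearts. Both strains thus had every CX array above every sham array for the type I mean, narrowly in C57BL/6J. The 17 genes include Irf7 and Rtp4, which passed the detection limit through CX C57.YA hearts only, and Isg20, which passed through sham hearts only. The type I separation is therefore given as a description. The mean of the 8 gamma-induced genes was 9.92, 10.04, 10.09 and 9.80 in CX C57.YA hearts, against 9.52, 9.52, 9.74 and 9.46 in sham C57.YA hearts. It was 9.94, 9.85, 9.92 and 10.07 in CX C57BL/6J hearts, against 9.55, 9.78, 9.54 and 9.75 in sham C57BL/6J hearts. Here, too, the CX arrays lay above the sham arrays within each strain.

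**Figure D3:**
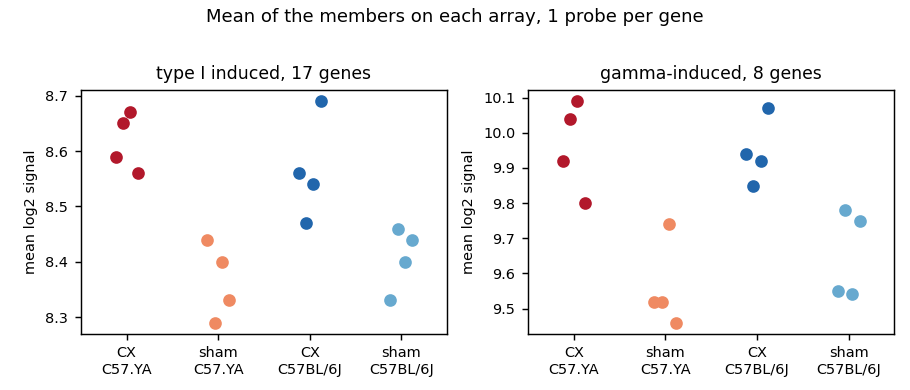
Mean log2 signal of the 17 type I genes (left) and the 8 gamma-induced genes (right) on each array, with 1 probe per gene and 1 point per mouse, for CX and sham C57.YA hearts and CX and sham C57BL/6J hearts. CX points lie above sham points of their strain in both panels, for example at 9.80 to 10.09 against 9.46 to 9.74 for the gamma-induced genes in C57.YA. The type I genes include Irf7 and Rtp4, which passed the detection limit through CX C57.YA hearts only, and Isg20, which passed through sham hearts only.

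The receptor chains held every interaction call among the member probes, that is, every change by castration that differed between the strains by test. Ifngr2 is the signalling chain of the gamma receptor. On ILMN_2592709 it read 10.89, 10.98, 10.88 and 10.87 in CX C57.YA hearts, against 10.19, 10.26, 10.34 and 10.23 in sham C57.YA hearts, and rose by 0.65 (standard error 0.07, 1.57-fold, adjusted p = 3.12e-06). In C57BL/6J the same probe read 10.53, 10.57, 10.45 and 10.50 in CX hearts, against 10.28, 10.13, 10.26 and 10.41 in sham hearts, and rose by 0.24 (adjusted p = 0.0402), a call lost without sham replicate 2 (adjusted p = 0.123). In order of mean level, CX C57.YA came first, then CX C57BL/6J, and the sham groups of both strains followed without a difference beyond their spread. The change in C57.YA exceeded that in C57BL/6J by 0.41 (standard error 0.09, adjusted p = 0.0309 for the interaction).

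The other Ifngr2 probes ran the same way. ILMN_1258300 read 10.43, 10.64, 10.63 and 10.73 in CX against 9.85, 9.65, 10.05 and 10.10 in sham C57.YA hearts, a rise of 0.70 (adjusted p = 9.20e-05), and 10.16, 10.27, 10.27 and 9.96 in CX against 9.90, 9.89, 10.06 and 9.84 in sham C57BL/6J hearts, a difference of 0.24 (adjusted p = 0.173). ILMN_2784272 read 11.16, 11.19, 11.07 and 11.28 in CX against 10.49, 10.76, 10.85 and 10.64 in sham C57.YA hearts, a rise of 0.49 (adjusted p = 2.42e-04), and 10.80, 10.81, 10.71 and 10.79 in CX against 10.56, 10.63, 10.59 and 10.72 in sham C57BL/6J hearts, a difference of 0.15 (adjusted p = 0.287). The groups were apart in C57.YA and overlapped in C57BL/6J. For these probes the interaction did not pass, at 0.46 (adjusted p = 0.117) and 0.34 (adjusted p = 0.129). ILMN_1258300 did pass in C57BL/6J without CX replicate 4 (adjusted p = 0.0818).

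Ifnlr1, the specific chain of the lambda receptor, fell in C57BL/6J. Its probe ILMN_2653328 read 8.42, 8.27, 8.25 and 8.33 in CX C57BL/6J hearts, against 8.54, 8.77, 8.60 and 8.67 in sham C57BL/6J hearts, a difference of -0.33 (standard error 0.07, adjusted p = 0.0127) that did not pass with median scaling (-0.28, adjusted p = 0.130). ILMN_3009880 read 6.99, 7.04, 7.34 and 7.10 in CX and 7.36, 7.44, 7.58 and 7.43 in sham hearts and also differed by -0.33 (adjusted p = 0.0397), which was lost without CX replicate 1 or sham replicate 3 (adjusted p = 0.104 and 0.121). No CX C57BL/6J array reached the lowest sham array on either probe. With the mean of the atrial genes as a covariate neither fall passed, at -0.30 on ILMN_2653328 (adjusted p = 0.632) and -0.22 on ILMN_3009880 (adjusted p = 0.814). Those genes were high in CX C57BL/6J hearts only, so group and covariate cannot be told apart in that fit.

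In C57.YA, Ifnlr1 did not pass. ILMN_2653328 read 8.57, 8.54, 8.58 and 8.42 in CX C57.YA hearts, against 8.32, 8.60, 8.48 and 8.41 in sham C57.YA hearts, and differed by 0.07 (adjusted p = 0.551). ILMN_3009880 read 7.53, 7.50, 7.32 and 7.44 in CX and 7.28, 7.13, 7.22 and 7.55 in sham hearts, and differed by 0.15 (adjusted p = 0.292). The second did pass without sham C57.YA replicate 4 (adjusted p = 0.0747). The interaction was 0.40 on ILMN_2653328 (adjusted p = 0.0615) and 0.49 on ILMN_3009880 (adjusted p = 0.0700).

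Only these 3 probes of Ifngr2 and Ifnlr1 had an interaction call among the 48 member probes, all positive, while 1.50% of all tested probes had a positive and 1.39% a negative call. No type I or gamma-induced probe passed (limma, adjusted p under 0.1), although 5 type I and 2 gamma-induced probes had a positive interaction at an unadjusted p under 0.05, and 1 type I probe a negative one. The largest differences of change among these were 0.61 for Ifit3 on ILMN_2944666 (95% interval 0.23 to 1.00, adjusted p = 0.111) and 0.61 for Gbp3 on ILMN_2918002 (0.17 to 1.05, adjusted p = 0.167). The number of interaction calls moved with single arrays. It was 1 without CX C57.YA replicate 2, sham C57.YA replicate 1, CX C57BL/6J replicate 2 or sham C57BL/6J replicate 2, 5 without sham C57.YA replicate 4 and 9 without sham C57.YA replicate 3. Without sham C57.YA replicates 1 and 2 none was called, and without replicates 3 and 4 there were 11 positive calls and 1 negative call.

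The call of Ifnlr1 on ILMN_2653328 was lost without any of 7 arrays (CX C57.YA replicates 1, 2 and 3, sham C57.YA replicate 1, CX C57BL/6J replicates 2 and 3 and sham C57BL/6J replicate 2, adjusted p = 0.110 to 0.129), and that on ILMN_3009880 without any of 9 (CX C57.YA replicates 1, 2 and 4, sham C57.YA replicates 1 and 2, CX C57BL/6J replicates 1 and 2 and sham C57BL/6J replicates 2 and 3, adjusted p = 0.102 to 0.149). The Ifngr2 call on ILMN_2592709 was kept with each single array left out. With median scaling none of the 3 interactions passed, at 0.40 for this Ifngr2 probe (adjusted p = 0.223) and at 0.46 (ILMN_2653328, adjusted p = 0.144) and 0.52 (ILMN_3009880, adjusted p = 0.108) for Ifnlr1. None passed with the atrial covariate either (adjusted p = 0.332 for Ifngr2, 0.604 and 0.699 for Ifnlr1), a fit in which group and covariate cannot be told apart. The other Ifngr2 probes gained an interaction call without sham C57.YA replicate 3 (adjusted p = 0.0777 and 0.0600), and ILMN_1258300 also without sham C57.YA replicate 4 or CX C57.YA replicate 1.

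The remaining chains did not pass in either strain. Ifngr1, the ligand-binding chain for gamma, read 9.73, 9.76, 9.84 and 9.72 in CX against 9.68, 9.61, 9.69 and 9.90 in sham C57.YA hearts, and 9.67, 9.59, 9.68 and 9.70 in CX against 9.56, 9.61, 9.50 and 9.66 in sham C57BL/6J hearts. The differences were 0.04 (95% interval -0.10 to 0.18) and 0.08 (-0.07 to 0.22). Ifnar2, the chain that binds type I interferon most tightly, read 7.69, 7.49, 7.82 and 7.78 on ILMN_2598703 in CX against 7.62, 7.64, 7.87 and 7.55 in sham C57.YA hearts, and 7.50, 7.70, 7.39 and 7.61 in CX against 7.63, 7.74, 7.30 and 7.52 in sham C57BL/6J hearts. It differed by 0.02 in C57.YA and by 0.00 in C57BL/6J on this probe, and by -0.10 and -0.01 on ILMN_2971514, with overlap throughout. Ifnar1 was not detected on any array. In the RefSeq annotation Ifnar2, Il10rb, Ifnar1 and Ifngr2 follow each other on chromosome 16 with no other protein-coding gene between them. Il10rb, the second chain of the lambda receptor and no member here, was looked at after its values were seen and rose in both strains, by 0.39 (adjusted p = 0.00282) in C57.YA hearts and 0.23 (adjusted p = 0.0973) in C57BL/6J hearts.

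**Figure D4:**
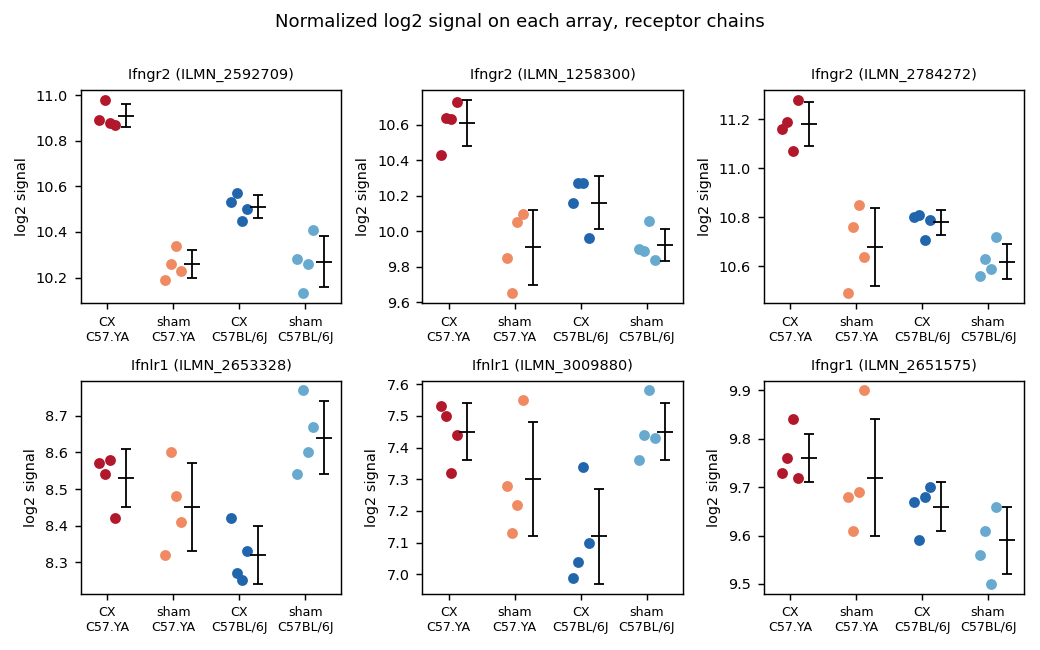
Normalized log2 signal of 3 Ifngr2 probes, 2 Ifnlr1 probes and 1 Ifngr1 probe on each array, in CX and sham C57.YA hearts and CX and sham C57BL/6J hearts. Points are single mice, with the mean ± SD (n = 4) beside them. On ILMN_2592709 the CX C57.YA points lie at 10.87 to 10.98, above all other groups, and both Ifnlr1 probes are lowest in CX C57BL/6J hearts.

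The strains were then compared among CX hearts. Of the 48 member probes 10 were higher in C57.YA, in 5 genes, and 1 was lower, whereas 11.6% of all tested probes were higher and 11.8% lower. Over the 44 member probes that met the detection limit in both CX groups, 9 were higher, in 4 genes, and none was lower, against 11.3% and 12.3% of such probes. The groups did not overlap for 8 member probes that were higher and 2 that were lower in C57.YA, against 10.1% and 11.2% of all probes. The 2 lower ones were those of Isg20 and of Ifit3 on ILMN_1246194 (-0.21, adjusted p = 0.148). Ifit3 differed by -0.22 on ILMN_1230458 and by 0.13 on ILMN_2944666, so its probes disagreed in direction, and none was called. This comparison shares its CX arrays with those above. All 3 Ifngr2 probes were higher in CX C57.YA than in CX C57BL/6J hearts, by 0.44 (ILMN_1258300, adjusted p = 0.00590), 0.40 (ILMN_2592709, adjusted p = 0.00135) and 0.40 (ILMN_2784272, adjusted p = 0.00253), with the values given above and no overlap. Ifnlr1 was higher by 0.33 on ILMN_3009880 (adjusted p = 0.0204) and by 0.21 on ILMN_2653328 (adjusted p = 0.0597). The strains overlapped on both. The call on ILMN_2653328 was lost without any of 5 arrays (CX C57.YA replicates 1, 2 and 3 and CX C57BL/6J replicates 2 and 3, adjusted p = 0.109 to 0.141).

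Among the induced members, Ifi27, a small membrane protein of the type I response, differed between the strains. Its change by castration did not pass in either, at 0.12 (95% interval -0.13 to 0.38) on ILMN_3125606 and 0.14 (-0.08 to 0.35) on ILMN_2681232 in C57.YA, and at -0.14 (-0.40 to 0.11) and -0.15 (-0.36 to 0.07) in C57BL/6J. Between CX hearts, probe ILMN_3125606 read 12.05, 12.04, 12.58 and 12.09 in CX C57.YA hearts, against 11.97, 11.83, 11.64 and 11.66 in CX C57BL/6J hearts, and was higher by 0.41 (standard error 0.12, adjusted p = 0.0264). Probe ILMN_2681232 read 11.96, 12.02, 12.43 and 12.07 in C57.YA and 11.87, 11.75, 11.60 and 11.75 in C57BL/6J hearts, a difference of 0.38 (adjusted p = 0.0181). The strains did not overlap on either probe, and C57.YA replicate 3 stood highest on both. With median scaling in place of quantile normalization these differences were 0.31 and 0.28 and did not pass (adjusted p = 0.160 and 0.156).

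Usp18 on ILMN_2433990 read 8.27, 8.20, 8.31 and 8.08 in CX C57.YA hearts, against 7.94, 7.85, 7.85 and 7.93 in CX C57BL/6J hearts, and was higher by 0.32 (adjusted p = 0.0450, but 0.116 without C57.YA replicate 3). Its probe ILMN_3131679 read 8.98, 9.06, 9.30 and 9.15 in C57.YA and 8.82, 8.82, 8.97 and 8.88 in C57BL/6J hearts, a difference of 0.25 (adjusted p = 0.0872) that was lost without any of 7 arrays (CX C57.YA replicates 2, 3 and 4, CX C57BL/6J replicates 1, 2 and 4 and sham C57BL/6J replicate 2, adjusted p = 0.101 to 0.242). Every CX C57.YA array was above every CX C57BL/6J array on both. Rtp4 was detected on 3 of 4 CX C57.YA arrays (7.05, 6.85, 7.03 and 7.05) and on no CX C57BL/6J array (6.91, 6.67, 6.67 and 6.80), and passed the limit only through the CX C57.YA group, so its call (adjusted p = 0.0393, lost without CX C57BL/6J replicate 2 or 3, adjusted p = 0.107 and 0.110) is a description. The lower call was on the Isg20 probe, which met the limit in neither CX group and gives no comparison between them. No member probe was lower without CX C57BL/6J replicate 4, and 2 were without sham C57.YA replicate 3, sham C57.YA replicate 4 or CX C57BL/6J replicate 1.

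No gamma-induced probe was called between the strains in CX hearts (limma, adjusted p under 0.1), with 1 of 14 higher and 1 lower at an unadjusted p under 0.05. The medians were 0.04 over the type I genes and 0.06 over the gamma-induced genes, beside -0.01 over all tested probes. With median scaling 5 member probes were higher and 2 lower, and over all probes the split was then 736 higher to 1353 lower, against 1480 to 1512 after quantile normalization. Of the macrophage probes 5 of 11 were higher in CX C57.YA hearts (Mrc1, Lyz2, C1qb, C1qc and F13a1), with list means of 9.86 to 10.28 in CX C57.YA against 9.43 to 9.92 in CX C57BL/6J hearts, and all 4 atrial genes were lower. With the atrial mean as a covariate no member probe was called in either direction. The part of these cells was not tested.

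**Figure D5:**
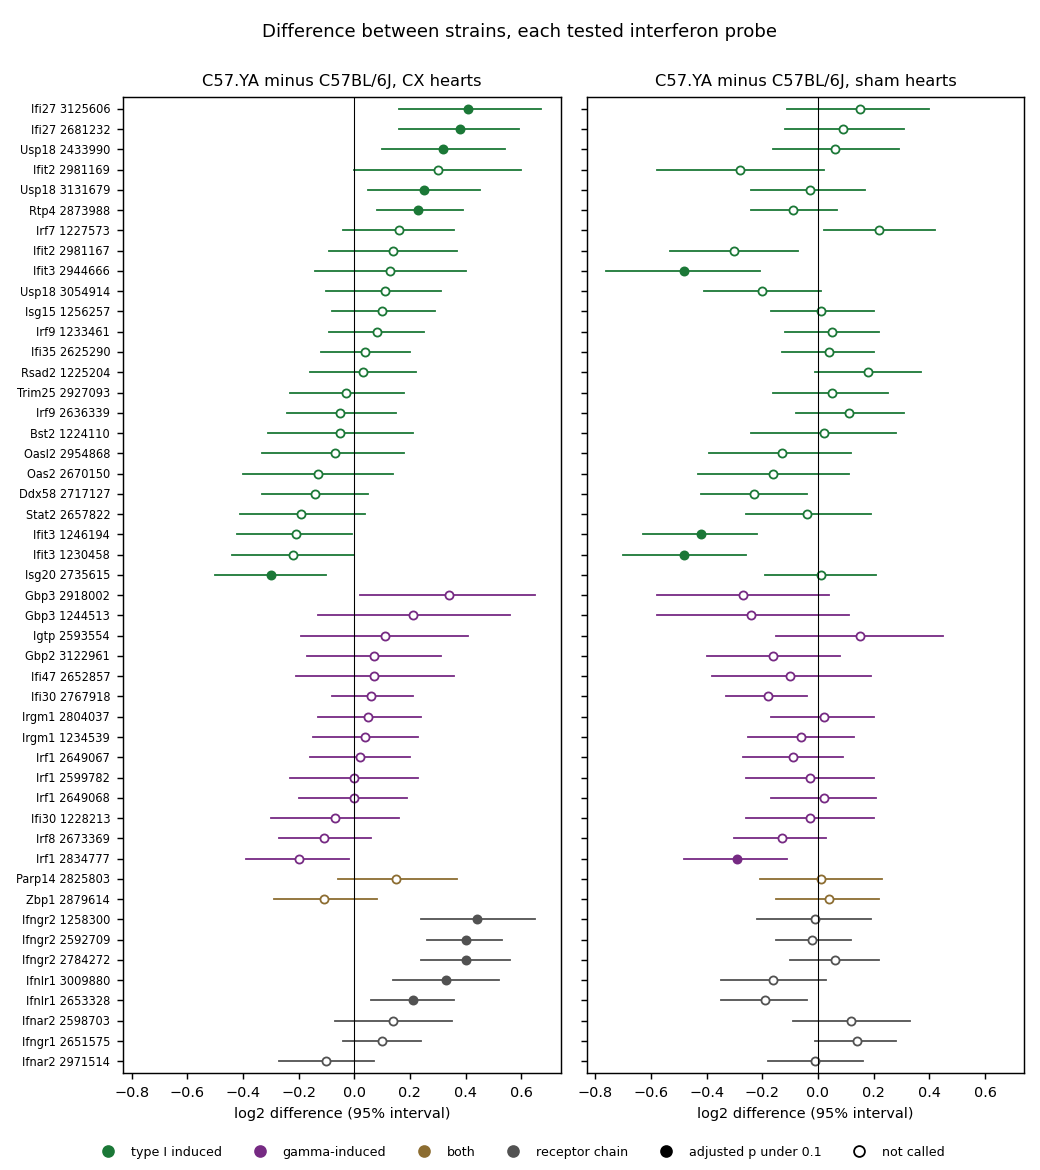
Difference between strains (C57.YA minus C57BL/6J, log2, with its 95% interval) of each of the 48 tested member probes, in CX hearts on the left and in sham hearts on the right, ordered by class and by the difference in CX hearts and named by gene and probe number. Filled points have an adjusted p under 0.1: 10 higher and 1 lower in CX hearts, none higher and 4 lower in sham hearts.

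Among sham hearts none of the 48 member probes was higher in C57.YA (limma, adjusted p under 0.1) and 4 were lower, in 2 genes, whereas 1.98% of all tested probes were higher and 2.31% lower. At an unadjusted p under 0.05 these numbers were 1 and 8. The groups did not overlap for 1 member probe that was higher and 3 that were lower in C57.YA, against 4.10% and 5.02% of all probes. These were Rsad2 (0.18) on the higher side and Ifit3, Irf1 and Ifi30 with 1 probe each on the lower side. Ifit3 was lower on all 3 probes. ILMN_1230458 read 7.35, 7.21, 7.68 and 7.16 in sham C57.YA hearts, against 7.82, 8.05, 7.78 and 7.69 in sham C57BL/6J hearts, a difference of -0.48 (standard error 0.11, adjusted p = 0.0167). ILMN_1246194 read 7.70, 7.34, 7.20 and 7.49 in C57.YA and 7.87, 7.80, 8.09 and 7.66 in C57BL/6J hearts, a difference of -0.42 (adjusted p = 0.0250, but 0.102 without C57.YA replicate 3). The strains were apart on the first probe and met on the second, where C57.YA replicate 1 lay above C57BL/6J replicate 4.

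ILMN_2944666 read 9.09, 8.57, 9.51 and 9.24 in sham C57.YA hearts, against 9.48, 9.72, 9.51 and 9.63 in sham C57BL/6J hearts, and differed by -0.48 (adjusted p = 0.0553), with sham C57.YA replicate 3 inside the C57BL/6J range. This call was lost without sham C57BL/6J replicate 2 or 4 (adjusted p = 0.102 to 0.171), and without sham C57.YA replicates 1 and 2 the difference was -0.21 (adjusted p = 0.167). Irf1 on ILMN_2834777 read 11.25, 11.26, 11.22 and 11.01 in sham C57.YA hearts, against 11.45, 11.54, 11.43 and 11.49 in sham C57BL/6J hearts, and differed by -0.29 (adjusted p = 0.0855), with no overlap. Its call was lost without any of 9 arrays (CX C57.YA replicates 1 and 2, sham C57.YA replicates 3 and 4, CX C57BL/6J replicate 3 and all 4 sham C57BL/6J replicates, adjusted p = 0.101 to 0.257), and its other tested probes differed by -0.09 to 0.02. The count of lower probes was 2 without sham C57BL/6J replicate 2, without sham C57BL/6J replicate 4 and without sham C57.YA replicates 3 and 4. Ifngr2 did not pass between sham hearts, at -0.02 (95% interval -0.15 to 0.12) on ILMN_2592709, and Ifnlr1 was at -0.19 and -0.16. It did pass on ILMN_2653328 without sham C57.YA replicate 2 (adjusted p = 0.0869). The medians were 0.01 over the type I genes and -0.11 over the gamma-induced genes.

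The rest of the pathway was read from lists of ligands, signalling genes and further targets. Of 12 interferon ligand genes 10 had probes, 11 in all, and none could be tested. Ifng, Ifnb1 and the alpha interferons were not detected on any array, and Ifne was detected on 2. Of 15 signalling genes tested, castration raised 2 and lowered 3 in C57.YA, and raised 2 and lowered 2 in C57BL/6J. Of their 20 probes, 2 rose and 3 fell in C57.YA, against 9.55% and 10.1% of all tested probes, and 2 rose and 2 fell in C57BL/6J, against 4.10% and 4.71%, so at this number of probes the list gives no result of its own. As single genes, Jak1, a kinase that all the interferon receptors use, rose by 0.73 (adjusted p = 2.68e-04) in C57.YA hearts and 0.40 (adjusted p = 0.0491) in C57BL/6J hearts. Mavs, the mitochondrial adaptor of the RNA sensors, differed by -0.69 (adjusted p = 1.73e-05) in C57.YA and -0.35 (adjusted p = 0.0163) in C57BL/6J.

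Of 26 further interferon targets tested, castration raised 9 and lowered 1 in C57.YA, and raised 6 and lowered 1 in C57BL/6J. Over their 36 probes, 9 rose and 1 fell in C57.YA, against 9.55% and 10.1% of all tested probes, and 6 rose and 2 fell in C57BL/6J, against 4.10% and 4.71%. Over the 27 probes that met the detection limit in both groups, 7 rose in C57.YA and 6 in C57BL/6J, and none fell. The largest rise in C57.YA was that of Cxcl9, a gamma-induced chemokine that draws T cells, by 1.08 (adjusted p = 1.69e-05) in C57.YA hearts and 0.53 (adjusted p = 0.0226) in C57BL/6J hearts. Irgm2, a relative of Irgm1, rose by 0.64 in C57.YA (adjusted p = 0.00325) and by 0.53 in C57BL/6J (adjusted p = 0.0263). Cmpk2, a mitochondrial nucleotide kinase, rose by 0.40 (adjusted p = 0.0232) in C57.YA hearts and 0.58 (adjusted p = 0.00485) in C57BL/6J hearts. The lowered calls were those of Ifi205, a DNA-binding protein of the p200 family, whose probes passed the limit only through sham hearts and are given as a description, with means on ILMN_1245200 of 6.74 in CX and 7.46 in sham C57.YA hearts and of 6.61 in CX and 7.30 in sham C57BL/6J hearts. Ifitm1, which blocks viral entry, was detected on 4 CX C57.YA arrays and no sham C57.YA array and was at least 1.38-fold higher (adjusted p = 4.10e-06). Gbp5 rose by 0.73 in C57.YA (adjusted p = 0.00117) with an interaction of 0.67 (adjusted p = 0.0834). Between strains in CX hearts 4 of the 36 probes were higher and 3 lower in C57.YA, against 11.6% and 11.8% of all tested probes. In sham hearts none was higher and 2 were lower, against 1.98% and 2.31%. These were Ifitm1, not detected in sham C57.YA hearts, and Eif2ak2, the kinase that stops translation on sensing viral RNA. Over the 28 probes that met the limit in both sham groups, none was higher and 1 (Eif2ak2) was lower, against 2.05% and 2.31% of such probes. At these numbers the list gives no strain result of its own.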

How the data were processed

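Left ventricles of 16 male mice were profiled, with 1 mouse per Illumina MouseRef-8 v2.0 array and 4 mice per group, so replicates are separate animals. The deposited signal intensity of each probe was not normalized, and per the file headers each comes with a detection p-value. The authors also deposited a table of log2 values, whose probe names do not pair with the intensities. It was paired by values with the normalized log2 signals made here, from which it differed by at most 5.43e-06. As an alternative it therefore repeats the same values and is no separate check. In the signal table, 32 other columns of values were not used. Here intensities (39.0 to 67559) were log2-transformed and quantile-normalized without background subtraction, and a mean per group was fitted to all 16 arrays with limma 3.58.1 (R 4.3.3), with Benjamini-Hochberg adjustment over 12764 probes at 0.1. The number of arrays limits the precision. Probes were named from a platform annotation table for 23978 of 25697 probes, 23962 of them through gene identifiers. The 2 BeadChips were randomized, but the chip of each array was not given, so it was not tested. Members and gene lists were chosen with earlier results of these data known. Probes given on every array were the up to 10 called with the largest difference per comparison, the receptor chains and those with an interaction call. Other pathway genes named are called ones, at most 6 per comparison by size, beside Il10rb. The fit was tested on simulated data. Alternatives were another background correction (neqc), scaling, detection limit, false discovery rate, array weights, replicate block, covariate and sets of arrays.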

Additional observations from a re-analysis of the deposited data

Results flagged for a closer look

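Among 112 groups of 4 arrays checked, for 28 named probes, 7 held an array that stood apart from the others by more of the group's range than Dixon's limit at the 95% level allows. Chance alone marks about 1 in 20 groups. In CX C57.YA hearts, Ifnar2 (ILMN_2971514) was 7.61 on replicate 2 against 7.50 to 7.51 on the others, Ifngr2 (ILMN_2592709) was 10.98 on replicate 2 against 10.87 to 10.89, Rtp4 was 6.85 on replicate 2 against 7.03 to 7.05, and Ifi27 (ILMN_3125606) was 12.58 on replicate 3 against 12.04 to 12.09. In sham C57.YA hearts, Irf1 (ILMN_2834777) was 11.01 on replicate 4 against 11.22 to 11.26. In CX C57BL/6J hearts, Ifnar2 (ILMN_2971514) was 7.84 on replicate 4 against 7.54 to 7.57, and in sham C57BL/6J hearts Isg20 was 6.78 on replicate 3 against 7.02 to 7.03.

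By the interaction test, castration changed C57.YA and C57BL/6J hearts unequally for Ifngr2 on ILMN_2592709 (0.41, adjusted p = 0.0309) and for Ifnlr1 on ILMN_2653328 (0.40, adjusted p = 0.0615) and ILMN_3009880 (0.49, adjusted p = 0.0700), in limma's fit over all arrays. Each value is the change in C57.YA minus that in C57BL/6J.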

How the results depend on the processing

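Of 68 values of named probes, no called value changed direction in any alternative run. The adaptive false discovery rate kept all 68 on their side of the threshold. The authors' log2 table kept them as well, but it repeats the normalized values used here, so that outcome was fixed in advance. Median scaling lost 9 calls and the atrial covariate 27. Over all probes, median scaling gave 1243 raised to 448 lowered by castration in C57.YA, against 1219 to 1291, and 366 to 197 in C57BL/6J, against 523 to 601. Between sham hearts it gave 86 higher to 279 lower in C57.YA, against 253 to 295.

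For castration in C57.YA the count of lowered member probes was 0 with detection at 0.01 on all 4 arrays of a group and 0 without sham C57.YA replicates 1 and 2, and the type I median was 0.34 with that detection limit. In C57BL/6J, 1 probe was lowered with median scaling, the type I median was 0.30 with neqc and 0.30 with the stricter detection, and with the atrial covariate 2 probes were raised, 0 lowered, and the medians were 0.41 (type I) and 0.51 (gamma). Between CX hearts, median scaling gave 5 higher and 2 lower probes, lower probes were 0 with the stricter detection, 2 with the adaptive false discovery rate, 3 with the 8 arrays alone and 3 without sham C57.YA replicates 3 and 4, and the atrial covariate gave 0 higher, 0 lower and medians of -0.19 (type I) and -0.30 (gamma). Between sham hearts, 2 probes were lower with the 8 arrays alone and 2 without sham C57.YA replicates 3 and 4, and the type I median was -0.12 without replicates 1 and 2. Chosen after seeing the data, a count over probes that met the detection limit in every group compared gave 0 lowered probes by castration in C57.YA, 0 lower between CX hearts, and type I medians of 0.26 in C57.YA and 0.26 in C57BL/6J. Positive interaction calls were 0 with median scaling, 5 with the stricter detection, 6 with array weights, 0 with the atrial covariate, 0 without sham C57.YA replicates 1 and 2, and 11 without replicates 3 and 4, which also gave 1 negative call.

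With single arrays left out, raised probes ranged from 21 to 27 in C57.YA and 7 to 17 in C57BL/6J, and lowered ones from 0 to 1 and 1 to 2. The type I medians ranged from 0.13 to 0.21 and 0.16 to 0.23, and the gamma medians from 0.30 to 0.40 and 0.18 to 0.25. Between CX hearts, 7 to 11 probes were higher and 0 to 2 lower, with medians of 0.02 to 0.08 (type I) and -0.04 to 0.09 (gamma). Between sham hearts, 0 were higher and 2 to 6 lower, with medians of -0.03 to 0.01 and -0.17 to -0.08. Positive interaction calls ranged from 1 to 9, and negative ones stayed at 0. The causes of these shifts were not tested.

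The replicate numbers were used to name the mice, and the labels give no pairing by them. Same-numbered arrays deviated together with r from -0.0856 to 0.204 over 24 pairs, and 7 of 16 arrays correlated best with their own number. The median r was 0.0935 for the same number and -0.0207 for different numbers, and a shared step behind this was not tested. With the replicate block, 1 of the 68 values lost its call (Irf1 between sham hearts, adjusted p = 0.102) and no count moved beyond 1.5 times. Probes near the detection limit, such as Rtp4, Isg20 and Irf7, allow bounds at most.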
